A study of Mus musculus with 10 samples.

Results

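The genes described here are 39 genes of autophagy and of mitophagy, the removal of mitochondria by autophagy, chosen by symbol. All 39 were found among the 22891 genes of the deposited table. All 39 also passed the filter on low values, a linear mean of 10 or more, which left 15629 genes to test. The values come from RNA sequencing of whole, non-stimulated ovaries taken at 3 weeks of age from mice of the C57/Bl6/N;129SvEv7 strain. There were 5 control ovaries and 5 ovaries labelled Uba3 cKO, a conditional knockout of the gene for the catalytic subunit of the NEDD8-activating enzyme. The labels name neither the Cre driver and its target cells nor the genotype of the controls. Levels are log2 values as deposited, with 1 value per gene and library, and the sequencing depth behind them is unknown. The labels do not state whether each ovary is from its own animal, and the p-values then reflect only sample-to-sample spread, which may be technical.

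Autophagy encloses cytoplasm, protein aggregates or organelles in a double membrane, the autophagosome, which then fuses with the lysosome. A kinase complex starts the process, a lipid kinase marks the site, lipid transfer proteins and ATG9 vesicles supply membrane, and a pair of ubiquitin-like conjugation systems attaches ATG8 proteins to the lipid. ATG8 proteins in turn hold the receptors that bring in cargo, including the mitophagy receptors on the outer mitochondrial membrane. In the ovary, autophagy is known for its part in the survival of germ cells around birth and in the breakdown of follicles.

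Markers of granulosa cells and oocytes were present in every library, with a mean over 12 granulosa genes of 12.56 to 12.94 and over 33 oocyte genes of 9.20 to 10.03. Markers of theca and steroidogenic cells ran from 7.76 to 8.71. These means are not corrected for transcript length, so the lists are not ranked against each other. Markers of stroma ran from 9.76 to 10.70, of endothelium from 7.20 to 8.07, of macrophages from 5.05 to 5.52 and of erythroid cells from 6.91 to 8.55. The ranges of the groups overlapped in each of the 11 marker lists. Control replicate 3 stood apart. Its deviations fell with transcript length by 0.18 log2 units per doubling, against slopes of -0.074 to 0.069 in the other libraries. It held the highest or lowest value of 26 of the 39 genes and of 49.2% of all tested genes, so counts and medians of the gene groups are given without it where they turn or move most.

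Uba3 (ENSMUSG00000030061) stood at 10.17, 10.09, 9.88, 10.37 and 10.09 in control replicates 1 to 5 and at 10.12, 10.13, 10.12, 10.03 and 10.22 in Uba3 cKO replicates 1 to 5. The Uba3 cKO values all lay within the range of the controls. The difference was 0.0032 (standard error 0.081, 95% interval -0.17 to 0.18; exact two-sided permutation test, p = 1). The level in the whole organ therefore did not check the labels, and the groups are named as labelled. In whole ovaries, fewer cells of a type and less RNA per cell cannot be told apart.

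None of the 39 genes passed the test between the groups by limma, a linear model fitted across all tested genes. At an adjusted p of 0.05 the count was 0 of 39, with a background of 0.0% of all tested genes. At an unadjusted p under 0.05 it was again 0 of 39, with a background of 1.79% (0.973% higher and 0.819% lower). The groups overlapped in all 39 genes, while 0.32% of all tested genes had groups that did not overlap. Under the Uba3 cKO label the mean lay above that of controls in 16 genes and below it in 23. The median difference was -0.0084 log2 units, against 0.00034 over all tested genes. These signs were not stable: over 19 alternative settings 26 of the 39 differences changed sign at least once and 13 kept it. The other filters, the fit without limma's trend and a term for the replicate number cannot change a difference. Signs could therefore turn only in the remaining settings.

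The data bounded the differences closely. Single differences ran from -0.14 for Gabarap to 0.096 for Atg14. The 95% interval lay within 0.5 log2 units either side of 0 in all 39 genes, as it did in 94.9% of all tested genes. It lay within 0.25 in 29 of the 39, or 74.4%, and in 51.2% of all tested genes. The SD over the 10 libraries had a median of 0.11 for the 39 genes and ran from 0.034 for Lamp1 to 0.23 for Tfeb. Over all tested genes its median was 0.14.

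**Figure D1:**
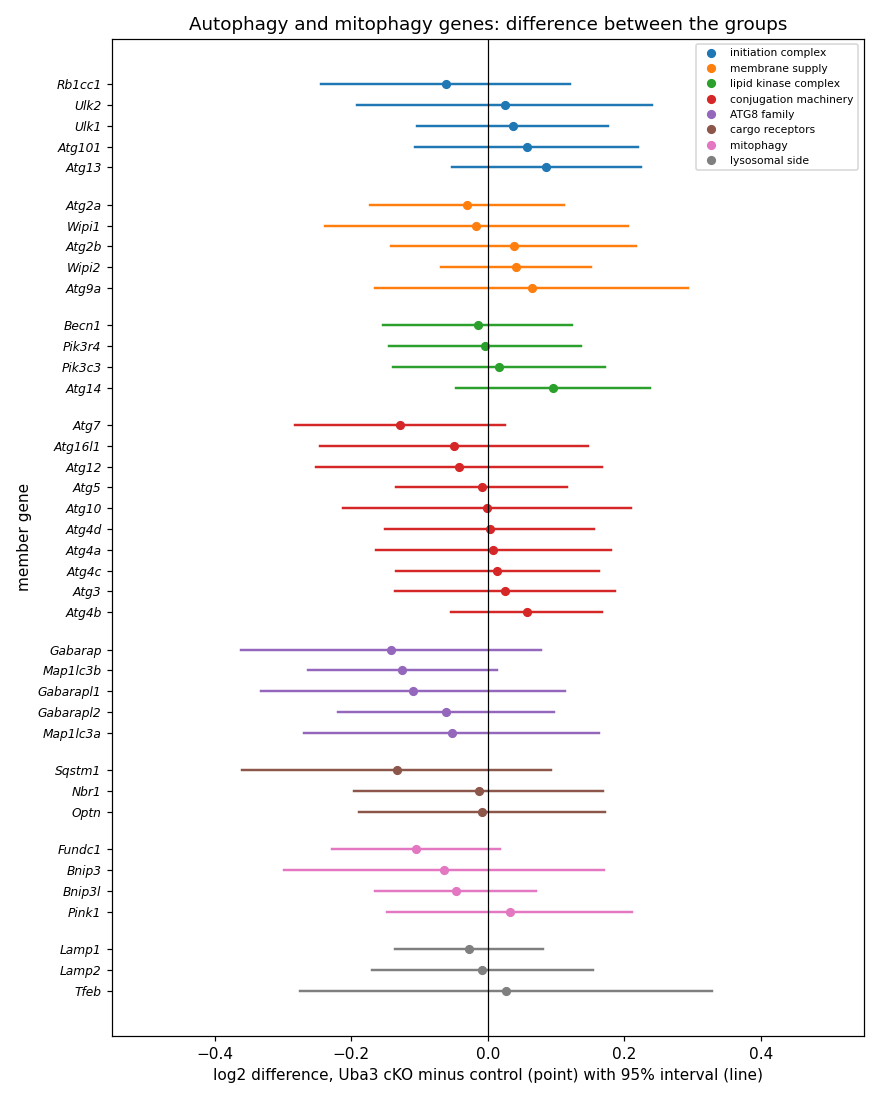
Difference between the groups for the 39 genes (horizontal axis, log2 level under the Uba3 cKO label minus control; point, estimate of the limma fit; line, 95% interval), sorted within 8 groups of related function. Every interval includes 0, and all 5 ATG8 genes lie to its left.

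In the initiation complex 4 genes had means above those of controls under the Uba3 cKO label and 1 had a mean below, and none passed the test. It consists of the kinases ULK1 and ULK2, the scaffold FIP200 encoded by Rb1cc1, and the adaptors ATG13 and ATG101. Atg13 stood at 10.62, 10.60, 10.55, 10.45 and 10.64 in control replicates 1 to 5 and at 10.66, 10.48, 10.72, 10.73 and 10.70 in Uba3 cKO replicates 1 to 5. In 4 of 5 Uba3 cKO libraries Atg13 lay above the highest control, and replicate 2 lay within the control range. Its difference was 0.086 (standard error 0.064, 95% interval -0.053 to 0.22, unadjusted p = 0.204 by limma). Atg101 stood at 9.53, 9.46, 9.80, 9.44 and 9.51 in controls and at 9.62, 9.50, 9.70, 9.60 and 9.61 under the Uba3 cKO label. Here control replicate 3 was the highest of all libraries. The Atg101 difference was 0.057 (standard error 0.076, 95% interval -0.11 to 0.22, unadjusted p = 0.466 by limma); without control replicate 3 it was 0.12 (unadjusted p = 0.0473, adjusted p = 0.9995 by limma). Ulk1, Ulk2 and Rb1cc1 had differences of 0.036, 0.025 and -0.061. Without control replicate 3 Ulk1 (-0.0032) and Ulk2 (-0.074) turned, which left 2 genes of the group above the controls and 3 below, with a median of -0.0032 in place of 0.036. Ulk2 turned with library weights and with the length slope as well.

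Of the genes of membrane supply 3 had the higher and 2 the lower mean in the Uba3 cKO group, and none passed the test. ATG2 proteins move lipid into the growing membrane, ATG9A is the scramblase of the vesicles that seed it, and WIPI proteins bind the lipid mark. Atg9a stood at 8.89, 8.83, 8.38, 8.89 and 9.01 in control replicates 1 to 5 and at 8.83, 8.80, 8.96, 8.79 and 8.94 in Uba3 cKO replicates 1 to 5. Control replicate 3 was the lowest of all libraries, by more than the range of the rest of the controls. The difference was 0.064 (standard error 0.11, 95% interval -0.17 to 0.29, unadjusted p = 0.556 by limma), and without that library it was -0.041. Wipi2, which recruits the ATG16L1 complex to the membrane, stood at 10.77, 10.87, 10.83, 10.71 and 10.74 in controls and at 10.85, 10.83, 10.80, 10.85 and 10.81 under the Uba3 cKO label. Every Uba3 cKO value of Wipi2 lay within the control range, and the difference was 0.041 (standard error 0.051, 95% interval -0.069 to 0.15, unadjusted p = 0.435 by limma). Atg2a, Atg2b and Wipi1 had differences of -0.031, 0.038 and -0.017. Without control replicate 3 Atg2a (0.0024) and Atg2b (-0.024) also turned, with 2 genes of the group then higher, 3 lower and a median of -0.024 in place of 0.038.

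The lipid kinase complex was divided evenly, with 2 genes higher and 2 lower. VPS34 (Pik3c3) makes the lipid phosphatidylinositol 3-phosphate, held by VPS15 (Pik3r4) and Beclin 1 (Becn1), while ATG14 directs the complex to autophagosome formation. Atg14 stood at 9.20, 9.39, 9.12, 9.20 and 9.35 in control replicates 1 to 5 and at 9.30, 9.35, 9.35, 9.37 and 9.36 in Uba3 cKO replicates 1 to 5. The Uba3 cKO values of Atg14 lay close together, with an SD of 0.030 against 0.11 in controls, and all were within the control range. The difference was 0.096 (standard error 0.066, 95% interval -0.046 to 0.24, unadjusted p = 0.17 by limma). Becn1 stood at 9.92, 9.89, 9.81, 9.98 and 9.80 in controls and at 9.88, 9.89, 9.96, 9.70 and 9.91 under the Uba3 cKO label, with 1 library below all controls and a difference of -0.015 (standard error 0.064, 95% interval -0.15 to 0.12, unadjusted p = 0.82 by limma). Pik3c3 and Pik3r4 had differences of 0.017 and -0.0046. Without control replicate 3 Pik3c3 was at -0.018, with 1 gene of the complex higher and 3 lower and a median of -0.013 in place of 0.0060.

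The conjugation machinery, 10 genes, was split into 5 means above and 5 below those of controls, with a median difference of 0.00070. Without control replicate 3 the split was again 5 and 5, in part of other genes, with a median of -0.013. ATG7 is the activating enzyme that both ubiquitin-like systems share. Atg7 stood at 8.91, 8.88, 9.14, 9.00 and 8.86 in control replicates 1 to 5 and at 8.79, 8.77, 8.92, 8.84 and 8.83 in Uba3 cKO replicates 1 to 5. In 4 of 5 Uba3 cKO libraries Atg7 was below every control, and replicate 3 was inside the control range. Its difference was -0.13 (standard error 0.071, 95% interval -0.28 to 0.025, unadjusted p = 0.0927 by limma). Leaving out control replicate 3, the highest library, gave -0.083 (unadjusted p = 0.190 by limma).

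ATG4 proteases expose the end of ATG8 proteins and later release them from the membrane. Atg4b, the gene of the protease with the broadest activity, stood at 10.37, 10.31, 10.33, 10.34 and 10.25 in controls and at 10.43, 10.35, 10.40, 10.31 and 10.39 under the Uba3 cKO label. In 3 of 5 Uba3 cKO libraries it lay above every control, with a difference of 0.057 (standard error 0.051, 95% interval -0.053 to 0.17, unadjusted p = 0.286 by limma). Atg4a, at 7.23, 7.20, 7.02, 7.19 and 7.24 in controls and 7.07, 7.22, 7.15, 7.18 and 7.29 under the Uba3 cKO label, had a difference of 0.0080 (standard error 0.079, 95% interval -0.16 to 0.18, unadjusted p = 0.921 by limma). Atg4d, at 8.68, 8.77, 8.87, 8.60 and 8.66 in controls and 8.76, 8.63, 8.71, 8.70 and 8.80 under the Uba3 cKO label, had a difference of 0.0026 (standard error 0.071, 95% interval -0.15 to 0.16, unadjusted p = 0.971 by limma). For both genes the groups overlapped. Atg4c had a difference of 0.014. The E2-like enzymes ATG3 and ATG10 had differences of 0.025 and -0.0012 in their genes. ATG5, ATG12 and ATG16L1 form the complex that places ATG8 proteins on the lipid, and Atg5, Atg12 and Atg16l1 had differences of -0.0088, -0.043 and -0.050.

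In all 5 ATG8 genes the Uba3 cKO mean lay below that of controls, with a median difference of -0.11, and none passed the test. These are the ubiquitin-like proteins of the LC3 and GABARAP subfamilies. Map1lc3b, the gene of the usual autophagosome marker LC3B, had the smallest p of the 39 genes. It stood at 11.41, 11.37, 11.60, 11.44 and 11.36 in control replicates 1 to 5 and at 11.41, 11.25, 11.40, 11.24 and 11.27 in Uba3 cKO replicates 1 to 5. In 3 of 5 Uba3 cKO libraries it lay below every control. The difference was -0.13 (standard error 0.064, 95% interval -0.26 to 0.014, unadjusted p = 0.0733 by limma), adjusted p = 0.9999.

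Gabarap stood at 11.38, 11.25, 11.80, 11.40 and 11.27 in control replicates 1 to 5 and at 11.30, 11.16, 11.40, 11.13 and 11.40 in Uba3 cKO replicates 1 to 5. Control replicate 3 was 0.40 above the next control. The Gabarap difference was -0.14 (standard error 0.10, 95% interval -0.36 to 0.078, unadjusted p = 0.187 by limma). Gabarapl1 stood at 11.04, 10.92, 11.22, 10.93 and 11.06 in controls and at 11.02, 10.61, 11.15, 10.74 and 11.09 under the Uba3 cKO label, where replicates 2 and 4 were below every control and the other 3 were among the controls. Its difference was -0.11 (standard error 0.10, 95% interval -0.33 to 0.11, unadjusted p = 0.304 by limma). Map1lc3a and Gabarapl2 had differences of -0.053 and -0.062.

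Control replicate 3 had the highest value of all 5 ATG8 genes. Without it the median difference of the group was -0.046 in place of -0.11, and Map1lc3a turned to the higher side. In that fit Map1lc3b was at -0.083 (unadjusted p = 0.144), Gabarap at -0.046 (unadjusted p = 0.519) and Gabarapl1 at -0.064 (unadjusted p = 0.545 by limma). The median was -0.055 without Uba3 cKO replicate 2 and -0.065 without Uba3 cKO replicate 4, with all 5 genes still lower. With library quality weights Map1lc3a was also on the higher side. In both scaling alternatives, quantile normalization and centring on library medians, all 5 remained lower.

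**Figure D2:**
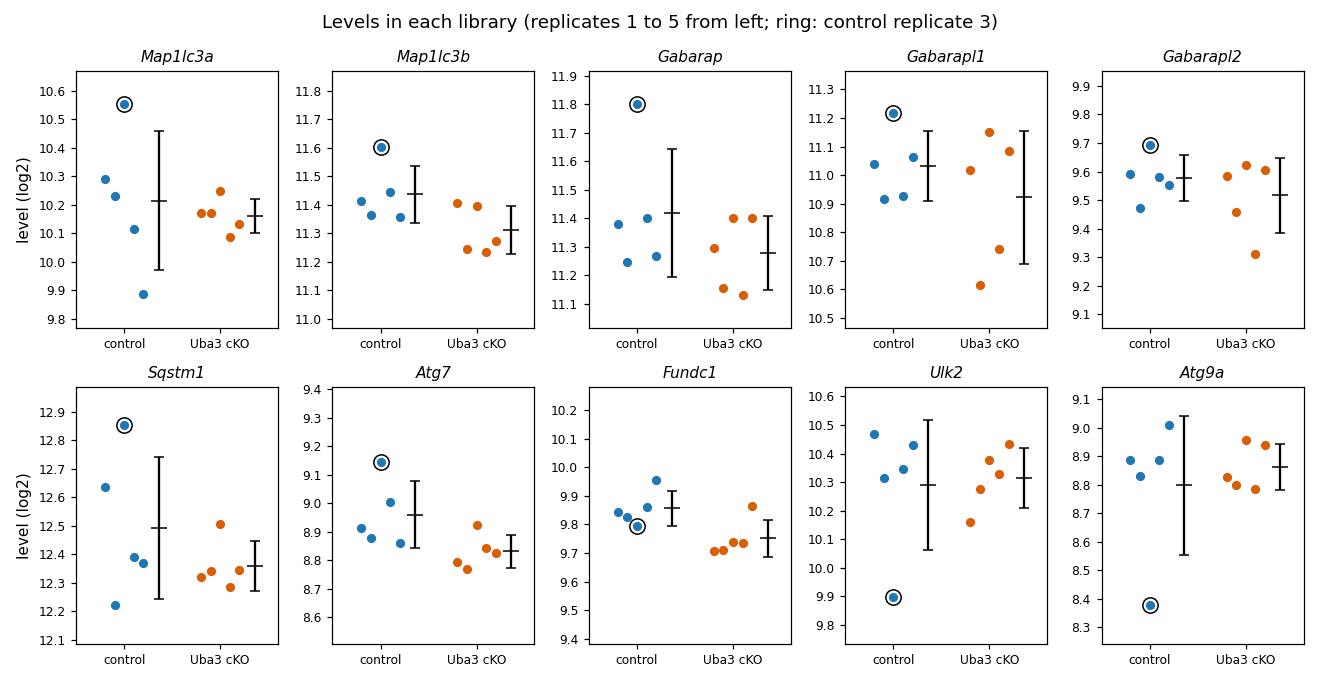
Level (vertical axis, log2) in each control and Uba3 cKO library for the 5 ATG8 genes and 5 others, with points ordered by replicate number and bars showing mean ± SD (n = 5). The ringed point is control replicate 3, which is the highest library of all 5 ATG8 genes, Sqstm1 and Atg7 and the lowest of Ulk2 and Atg9a.

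The cargo receptors were lower in mean in 3 of 3 genes, with a median difference of -0.014 and none past the test. That count did not hold: Nbr1 and Optn were both on the higher side without control replicate 5 (group median 0.014) and without Uba3 cKO replicate 1 (0.011). In 4 other fits, each lacking 1 library, 1 of these genes turned. Without control replicate 3 all 3 remained lower, with a median of -0.050. Sqstm1 encodes p62, which binds ubiquitin and ATG8 proteins and is itself degraded by autophagy. Sqstm1 stood at 12.64, 12.22, 12.85, 12.39 and 12.37 in control replicates 1 to 5 and at 12.32, 12.34, 12.51, 12.28 and 12.35 in Uba3 cKO replicates 1 to 5. The controls spanned both ends, from replicate 2 as the lowest of all libraries to replicate 3 as the highest, and the Uba3 cKO values lay between them. The difference was -0.13 (standard error 0.10, 95% interval -0.36 to 0.093, unadjusted p = 0.224 by limma), and without control replicate 3 it was -0.044. Nbr1, another ubiquitin-binding receptor, stood at 11.20, 10.99, 10.82, 11.02 and 11.23 in controls and at 10.94, 10.93, 11.20, 11.00 and 11.12 under the Uba3 cKO label, a difference of -0.014 (standard error 0.084, 95% interval -0.20 to 0.17, unadjusted p = 0.875 by limma). Optn, the gene of the receptor optineurin, had a difference of -0.0084.

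The mitophagy genes held 3 lower means and 1 higher, with a median of -0.056, and none passed the test. Without control replicate 3 the median was -0.096, without Uba3 cKO replicate 5 it was -0.10 with all 4 lower, and without control replicate 4 it was -0.0077 with 2 higher. PINK1 is the kinase that marks damaged mitochondria for ubiquitin-dependent removal, while BNIP3, NIX (Bnip3l) and FUNDC1 are receptors in the outer mitochondrial membrane. Fundc1 stood at 9.84, 9.83, 9.80, 9.86 and 9.96 in control replicates 1 to 5 and at 9.71, 9.71, 9.74, 9.74 and 9.86 in Uba3 cKO replicates 1 to 5. In 4 of 5 Uba3 cKO libraries Fundc1 lay below every control, and replicate 5 lay among them. The difference was -0.11 (standard error 0.057, 95% interval -0.23 to 0.018, unadjusted p = 0.0874 by limma). An unadjusted p under 0.05 was reached in 4 of 19 alternative settings, with no adjusted p under 0.9995: 0.0450 without control replicate 3, 0.0430 without Uba3 cKO replicate 5, 0.0348 with the length slope and 0.0360 with library weights.

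Bnip3l stood at 11.51, 11.58, 11.43, 11.60 and 11.51 in controls and at 11.50, 11.40, 11.46, 11.47 and 11.57 under the Uba3 cKO label, with Uba3 cKO replicate 2 the lowest library. Its difference was -0.047 (standard error 0.055, 95% interval -0.17 to 0.071, unadjusted p = 0.404 by limma). NIX is best known for clearing mitochondria from maturing red cells. The erythroid marker mean ran over 1.64 log2 units between libraries, and Bnip3l over 0.20. In control replicate 1, the library with the highest erythroid mean (8.55), Bnip3l was at 11.51, inside the range of the other controls. The means of all 5 erythroid markers lay below those of controls in the Uba3 cKO group, with a list mean of 7.48 ± 0.63 in controls and 7.28 ± 0.28 in that group, and their part in the Bnip3l values was not tested. Bnip3 stood at 10.07, 10.23, 9.94, 10.51 and 10.22 in controls and at 10.10, 10.04, 10.01, 10.06 and 10.45 under the Uba3 cKO label, where replicate 5 was 0.35 above the next of its group and below the highest control. The Bnip3 difference was -0.065 (standard error 0.11, 95% interval -0.30 to 0.17, unadjusted p = 0.56 by limma), and Pink1 had a difference of 0.032.

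On the lysosomal side 1 gene had the higher mean and 2 the lower, with a median of -0.0080 and none past the test. The median was -0.029 without control replicate 3, and 2 genes were higher with quantile normalization (0.0014) or without control replicate 1 (0.035). TFEB is the transcription factor that raises lysosomal and autophagy genes, and LAMP1 and LAMP2 are the main membrane proteins of the lysosome. Tfeb stood at 7.02, 6.76, 7.25, 6.70 and 6.40 in control replicates 1 to 5 and at 6.96, 6.96, 6.76, 6.70 and 6.86 in Uba3 cKO replicates 1 to 5. It had the widest spread of the 39 genes, with control replicates 3 and 5 at the ends and every Uba3 cKO value between them. The difference was 0.027 (standard error 0.14, 95% interval -0.27 to 0.33, unadjusted p = 0.852 by limma). Lamp1 was the steadiest, at 12.46, 12.43, 12.47, 12.55 and 12.47 in controls and 12.43, 12.47, 12.44, 12.46 and 12.46 under the Uba3 cKO label. Its 10 values spanned 0.12 log2 units, and the difference was -0.027 (standard error 0.050, 95% interval -0.14 to 0.081, unadjusted p = 0.595 by limma). Lamp2 had a difference of -0.0080.

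TFEB binds the CLEAR element, a palindrome built on the E-box core CACGTG. Promoter windows from 250 bases before to 50 bases after the start site were taken from RefSeq (GRCm38.p6), which is not the build named for the alignment. For the 39 genes the search used 37 windows, which belong to 32 of them. No window was searched for Atg12, Atg16l1, Becn1, Bnip3l, Map1lc3a, Pik3c3 and Rb1cc1. This does not show that RefSeq lacks them, and the set of all windows may leave out other genes. A filter on chromosome was applied to the windows of the 39 genes and not to the set of all windows. The E-box core, a palindrome, was in 6 of the 37 windows (16.2%), those of Atg3, Atg5, Atg7, Atg14, Bnip3 and Lamp1, and in 7.15% of all 32851 windows. The CLEAR element, searched only as an exact palindrome with no mismatch allowed, was in 0 of 37 and in 0.326% of all windows. At so low a background 37 windows cannot show whether these genes lack the element, and near matches were not counted. The antioxidant response element TGACNNNGC, bound by NRF2 and searched on both strands, was in 3 of the 37 (8.11%), those of Atg13, Map1lc3b and Ulk2, and in 12.4% of all windows. The CLEAR element contains the core, and none of the 32 genes with a window had both the core and the antioxidant response element. The windows of Lamp1 and Atg3 are printed because they held more than 1 E-box core, and that of Map1lc3b because the gene had the smallest p. Each runs 5′ to 3′ on the strand of the gene from 250 bases before to 20 after the start site, with matches in capitals.
Lamp1, chr8:13158911-13159180, plus strand: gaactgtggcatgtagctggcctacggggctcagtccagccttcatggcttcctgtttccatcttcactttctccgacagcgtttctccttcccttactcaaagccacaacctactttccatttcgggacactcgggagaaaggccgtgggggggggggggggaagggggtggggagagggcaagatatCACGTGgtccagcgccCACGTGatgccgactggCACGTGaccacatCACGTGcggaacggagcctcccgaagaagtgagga
Atg3, chr16:45158579-45158848, plus strand: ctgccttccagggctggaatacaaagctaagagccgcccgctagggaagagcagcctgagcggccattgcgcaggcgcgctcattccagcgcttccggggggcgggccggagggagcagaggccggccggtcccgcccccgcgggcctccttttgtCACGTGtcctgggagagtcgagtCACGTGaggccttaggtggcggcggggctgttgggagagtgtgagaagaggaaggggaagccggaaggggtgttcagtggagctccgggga
Map1lc3b, chr8:121590188-121590457, plus strand: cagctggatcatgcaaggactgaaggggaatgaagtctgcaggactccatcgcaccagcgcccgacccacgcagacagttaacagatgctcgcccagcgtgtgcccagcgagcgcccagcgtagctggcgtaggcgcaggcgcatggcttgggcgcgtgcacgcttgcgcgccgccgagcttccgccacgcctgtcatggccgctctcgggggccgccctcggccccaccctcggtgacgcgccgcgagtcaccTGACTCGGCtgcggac
In Lamp1 the 4 cores begin 61, 45, 28 and 15 bases before the start site, and in Atg3 the 2 cores begin 94 and 71 bases before it. In Map1lc3b the capitals mark an antioxidant response element just after the start. These matches are letters in a window and do not show binding. Of the 6 genes with an E-box core, differences between the groups ran from -0.13 for Atg7 to 0.096 for Atg14, with 0 of 6 called.

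Levels were compared between genes only per length, as the mean log2 value over 10 libraries minus log2 of the longest transcript in kb. On this scale the 39 genes spanned 51.8-fold and had a median of 8.43, against 6.94 for tested genes with a known length. Lamp1 was the highest at 11.31, followed by Sqstm1 at 11.01 and Gabarap at 10.92. With principal transcripts Sqstm1 (11.40) came before Lamp1 (11.31). With median transcript lengths Sqstm1 (12.50) was followed by Bnip3l (12.39) and Lamp1 (11.95). On the longest transcript Lamp1, Sqstm1 and Gabarap stood at percentiles 98.0, 97.5 and 97.3 of tested genes. The lowest were Tfeb at 5.61, Atg4a at 6.04 and Atg4d at 6.15, as with principal transcripts, whereas with median lengths they were Atg4c (6.91), Atg9a (6.92) and Atg10 (7.19). On the longest transcript the 10 highest were 4 ATG8 genes, 3 mitophagy genes, Lamp1, Lamp2 and Sqstm1. With the principal transcript of each gene as the length, Wipi1 (9.90) and Wipi2 (9.84) were among the 10 highest in place of Lamp2 and Bnip3. With median lengths the 10 highest were Sqstm1, Bnip3l, Lamp1, Gabarap, Gabarapl1, Ulk1, Nbr1, Bnip3, Atg4b and Pink1. Of the 38 neighbouring pairs in the order, 7 kept it in all 10 libraries, and the rest changed places in at least 1 library.

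Gaps between related genes were larger than their spread between libraries in most pairs. Lamp1 exceeded Lamp2 by 1.65 ± 0.10 log2 units per length (SD over 10 libraries) and Gabarapl2 minus Gabarap was -2.11 ± 0.12. Relative to Atg4b, Atg4a stood at -2.24 ± 0.11, Atg4c at -1.56 ± 0.078 and Atg4d at -2.13 ± 0.089. Each of these gaps had the same sign in 10 of 10 libraries. Ulk1 exceeded Ulk2 by 0.60 ± 0.10, and Bnip3 minus Bnip3l was -0.45 ± 0.14, again in 10 of 10. Atg2a and Atg2b differed by 0.0015 ± 0.17 and each was the higher in 5 libraries. The length chosen decides some of these values. With the principal transcript of each gene the gap of Wipi1 over Wipi2 was 0.068 in place of 0.77, and that of Map1lc3a over Map1lc3b was 0.0014 in place of 0.71. With principal transcripts the gaps of the Lamp, Ulk, Atg4 and Bnip3 pairs moved by less than 0.01. With median transcript lengths Ulk1 exceeded Ulk2 by 2.75 and Atg2a exceeded Atg2b by 1.51, while all the other pairs named here kept their sign. Sizes changed on that length. Relative to Atg4b, Atg4a then stood at -3.6, Atg4c at -4.40 and Atg4d at -2.86. Bnip3 minus Bnip3l was -1.07, Gabarapl2 minus Gabarap was -1.6 and Lamp1 exceeded Lamp2 by 1.84.

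**Figure D3:**
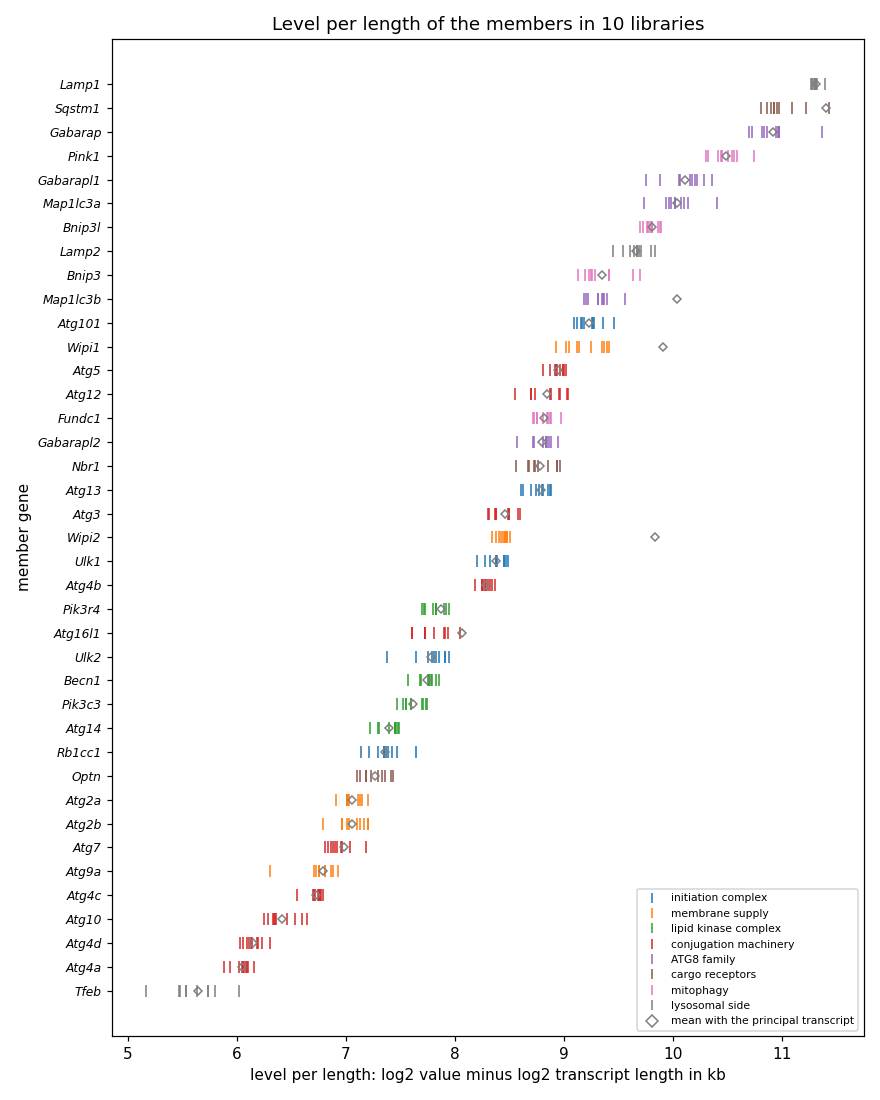
Level per length of the 39 genes (horizontal axis, log2 value minus log2 of the longest transcript in kb), ordered by mean, with a tick for each of the 10 libraries and colours for the groups of function. Grey diamonds give the mean with the principal transcript, which moves Wipi2, Map1lc3b, Wipi1 and Sqstm1 up the most and leaves Tfeb the lowest.

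Control replicate 3 differed from the rest of the controls along transcript length within these genes too. Its value minus the mean of the other 4 controls ran from -0.53 for Atg9a to 0.53 for Tfeb. Of 8 genes with a longest transcript under 2 kb, 5 were above the rest of the controls there. Of 14 genes with 4 kb or more, 9 were below. That is close to the share among all 39 genes, where 23 were below and 16 above. Across the 39 genes Pearson's r of this deviation with log2 length was -0.43, a description across genes, which are not independent replicates. Without this library the Uba3 cKO mean lay above that of controls in 13 genes and below it in 26, with a median of -0.030, and 2 genes (Atg101 and Fundc1) were at an unadjusted p under 0.05. At an adjusted p of 0.05 the count stayed at 0 of 39 by limma.

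**Figure D4:**
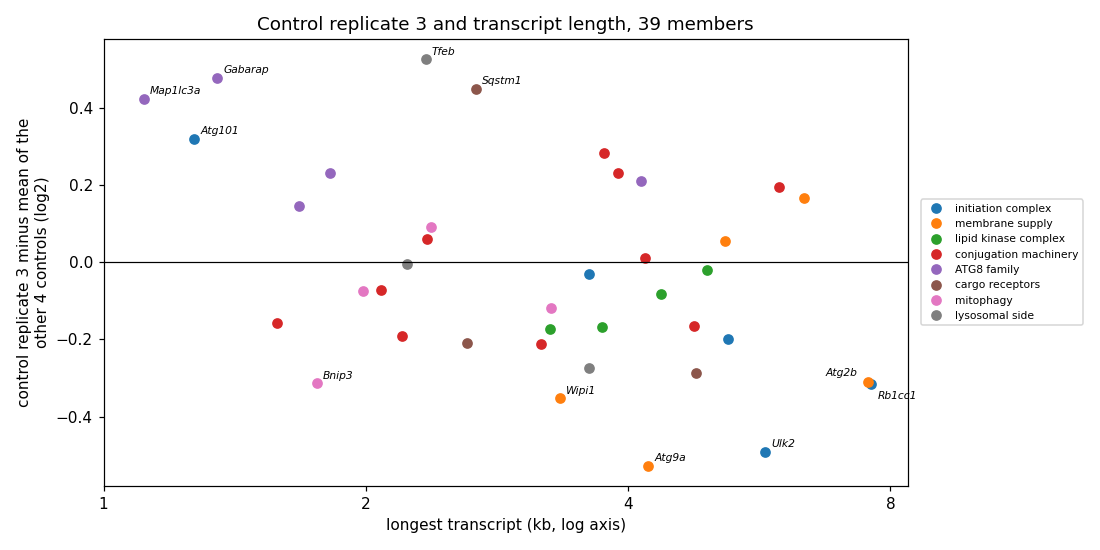
Deviation of control replicate 3 from the mean of the other 4 controls (vertical axis, log2) against the longest transcript of each gene (horizontal axis, kb, log scale), 1 point per gene. Short transcripts such as Gabarap lie mostly above 0 and long ones such as Ulk2 mostly below, with exceptions such as Bnip3 and Atg2a.

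Libraries also differed in how much oocyte transcript they held, and 2 of the 39 genes were called on it. The mean of 33 oocyte markers was fitted as a term beside the group in limma over all tested genes. A slope is given in log2 units of the gene per log2 unit of that mean, whose SD over the 10 libraries was 0.30. Of the 39 genes 2 passed an adjusted p of 0.05, or 1 rising and 1 falling, against a background of 2.54% of all tested genes, 2.21% rising and 0.333% falling. Unadjusted, 8 of the 39 genes had p under 0.05, close to the background of 18.9%. The slope was positive in 1 of them, with a background of 9.83%, and negative in 7, with a background of 9.03%. Among tested genes with a mean at or above that of the lowest of the 39, 1268 of 10889 had a negative slope at that p.

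Atg16l1, the subunit that sets where ATG8 proteins are attached, was the one that rose. Its level was 9.63, 9.84, 9.96, 9.51 and 9.71 in control replicates 1 to 5 and 9.82, 9.63, 9.63, 9.80 and 9.51 in Uba3 cKO replicates 1 to 5. Control replicate 3, with the highest oocyte mean (10.03), also had the highest Atg16l1, and Uba3 cKO replicate 5, with the lowest (9.20), was next to the lowest. The slope was 0.43 (standard error 0.10, adjusted p = 0.0455 by limma), with 0.54 within controls and 0.34 within Uba3 cKO libraries.

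Wipi1, whose protein binds the lipid mark of the forming autophagosome, was the one that fell. Its level was 11.15, 10.86, 10.67, 10.98 and 11.08 in control replicates 1 to 5 and 10.88, 10.76, 11.13, 10.78 and 11.10 in Uba3 cKO replicates 1 to 5. The 5 libraries with the highest oocyte means held the 5 lowest values. The slope was -0.50 (standard error 0.11, adjusted p = 0.0431 by limma), with -0.52 within controls and -0.48 within Uba3 cKO libraries.

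Neither call was firm. Leaving out 1 library took adjusted p from 0.0444 to 0.156 for Atg16l1 and from 0.0394 to 0.132 for Wipi1. Atg16l1 stayed under 0.05 only without Uba3 cKO replicate 2, and Wipi1 only without control replicate 5. Over these fits their slopes ran from 0.38 to 0.47 and from -0.55 to -0.43. Without the 2 libraries farthest from the median oocyte mean, control replicate 1 and Uba3 cKO replicate 5, the slopes were 0.51 (adjusted p = 0.304) and -0.53 (adjusted p = 0.348). The 6 other genes with a negative slope at an unadjusted p under 0.05 were Ulk2, Nbr1, Pik3c3, Atg3, Atg9a and Lamp2, with slopes of -0.39, -0.33, -0.27, -0.26, -0.36 and -0.25. Control replicate 3, with the highest oocyte mean, was the lowest library for all of them but Atg3. Without it Atg9a and Lamp2 were no longer at an unadjusted p under 0.05 by limma. All 6 slopes were negative within each group, but that of Lamp2 was -0.53 within controls and -0.0027 within Uba3 cKO libraries. The slope was negative in 27 of the 39 genes (69.2%), in 21 with quantile normalization and in 35 with libraries centred on their medians. In the main fit it was negative in 51.4% of all tested genes. Among tested genes with a mean at or above that of the lowest of the 39, the share was 58.6%. Centring on medians moved the median slope of all tested genes from -0.0078 to -0.16. The mean of endothelial markers moved with the oocyte mean as well, with a positive slope in 9 of 9 genes. Stromal markers had a positive slope in 9 of 9 genes too, and smooth muscle markers in 7 of 7. Their part in these slopes was not tested.

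**Figure D5:**
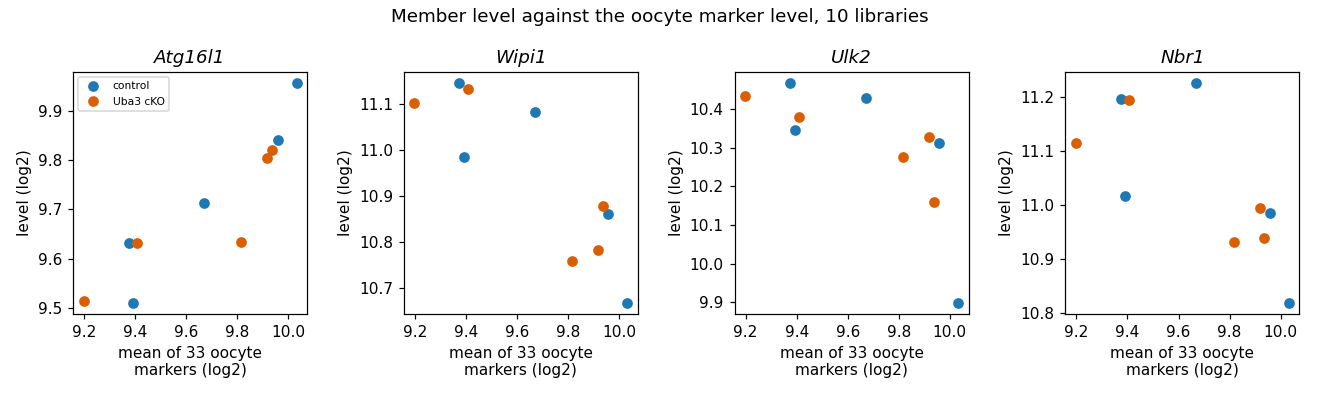
Level of Atg16l1, Wipi1, Ulk2 and Nbr1 (vertical axes, log2, each with its own range) against the mean of 33 oocyte markers (horizontal axis, log2), 1 point per library and colours for the groups. The 5 libraries with the most oocyte transcript hold the 4 highest values of Atg16l1 and the 5 lowest values of Wipi1, Ulk2 and Nbr1.

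The other genes of the pathway were 126 in 6 lists, and none of those tested was called either. Of 125 tested, 49 had the higher mean and 76 the lower, with a median difference of -0.016, and 0 were called or at an unadjusted p under 0.05 by limma (background 0.0% and 1.79%). Among 29 genes of mTORC1 and AMPK, which hold back and trigger the ULK complex, 10 were higher and 19 lower. The Rag GTPase genes Rraga, at 10.50 ± 0.090 (SD, n = 5) and 10.60 ± 0.067, and Rragb, at 8.39 ± 0.17 and 8.52 ± 0.11, had its smallest p. Among 17 accessory factors, 7 were higher and 10 lower. Trp53inp1, a p53 target whose protein binds ATG8 proteins, stood at 10.66 ± 0.15 and 10.49 ± 0.20. Uvrag, a partner of Beclin 1, stood at 9.94 ± 0.031 and 10.02 ± 0.058.

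Among 13 tested genes of other receptors, 4 were higher and 9 lower, with Tollip at 10.25 ± 0.071 and 10.19 ± 0.075 and the ER-phagy receptor gene Rtn3 at 11.40 ± 0.029 and 11.35 ± 0.033. Of 21 other mitophagy genes 11 were higher and 10 lower. Pptc7, a mitochondrial phosphatase gene, stood at 9.48 ± 0.32 and 9.66 ± 0.15. March5, a ubiquitin ligase gene of the outer mitochondrial membrane, stood at 10.87 ± 0.082 and 10.81 ± 0.051. In the fusion list 6 of 14 were higher and 8 lower, with the GTPase gene Rab7 at 11.69 ± 0.12 and 11.61 ± 0.038 and Vps18 at 9.15 ± 0.14 and 9.06 ± 0.094. Lysosomal enzymes and the proton pump had 11 higher and 20 lower of 31. The cathepsin A gene Ctsa stood at 11.03 ± 0.14 and 10.88 ± 0.13, a difference of -0.16 (standard error 0.083, 95% interval -0.34 to 0.022, unadjusted p = 0.0812 by limma). Glb1, the beta-galactosidase gene, stood at 10.06 ± 0.17 and 9.94 ± 0.12.

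Several of these values moved when control replicate 3 was left out, a step added after seeing the data. Pptc7 was at 8.91 in that library, and its difference between group means was 0.18 with it and 0.040 without it. Without that library the difference was 0.062 in place of 0.099 for Rraga and 0.065 in place of 0.14 for Rragb. It was -0.042 in place of -0.088 for Rab7, -0.058 in place of -0.088 for Vps18 and -0.10 in place of -0.16 for Ctsa. Trp53inp1 moved farther from 0 without that library, to -0.24 in place of -0.18. Over the 125 genes 52 were then higher and 73 lower, with a median of -0.019, and the mTORC1 and AMPK list held 14 higher and 15 lower.

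Some values may hold reads of other loci. The library kit is named without strand, so genes that overlap on opposite strands cannot be told apart. Atg4d shares 1405 exonic bases with Kri1 (mean level 7.34), Sqstm1 shares 580 with Mrnip (6.58) and Becn1 shares 3104 with Cntd1 (3.94), in the GENCODE M21 annotation. On the same strand Atg9a shares 1832 exonic bases with Gm29253, at 99.9% identity over 25.4% of the longest Atg9a transcript. Near-identical copies could also divide reads. Atg4a has a copy, Atg4a-ps, at 99.3% identity over 96.0% of its longest transcript, and copies of Bnip3 reach 48.9% of its transcript. These genes are uncertain to that extent.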

How the data were processed

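RNA of 10 whole ovaries was sequenced. The deposited values are normalized and on a log2 scale, from -0.21 to 20.19, and the authors' table does not name the transform. The submitters' processing notes list DESeq2, featureCounts, STAR, fastp and the GRCm39 build; their versions and roles are not given in the sources used here. Columns were matched to samples by the names in the labels. Library medians lay between 6.29 and 6.44, no libraries were identical, and depth is unknown, so no counting error is given. Differences of low genes may be understated on this scale; 36 of the 39 genes had a mean of at least 8.

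Symbols were found for 22188 of 22891 identifiers; lengths came from GENCODE M21. A gene was tested if its linear mean was 10 or more (3.32 in log2). The test was limma 3.58.1 (R 4.3.3) with its trend option, and p-values were adjusted by Benjamini-Hochberg over all 15629. The fit was tested on 10 simulated data sets made from the residuals of the real libraries, with shifts added to genes with a mean of at least 8. At an adjusted p under 0.05 it called 15.6% of shifts of 0.25 log2 units, so most of these were missed. It called 73.2% of shifts of 0.5 and 98.4% of shifts of 1. Of the genes without a shift, 0.837% were called as well. The Uba3 level was also tested with an exact permutation test (scipy 1.17.1). Near copies were found with blastn 2.17.0 at 95% identity or more.

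Full values are given for Uba3, the 2 genes of each functional group with the smallest p, the 5 with the largest SD, the 3 highest and lowest per length, and genes called on the oocyte mean; of each other pathway list the 2 with the smallest p are named. The members and lists were chosen with earlier results of these data known. Alternatives were other filters, scalings, weights, covariates, a replicate block and leaving out each library.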

Additional observations from a re-analysis of the deposited data

Results flagged for a closer look

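A single library lay far from the rest of its group in 12 of 80 groups of 5, counting the 39 genes and Uba3 in each group. The gap to the nearest library exceeded 0.71 of the group's range in each of the 12. This rule marks about 1 in 20 groups of independent, normally distributed values. The genes share their libraries, and the share over all tested genes was not computed. The count is therefore not a result about these genes.

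In 6 of the 12 the library was control replicate 3. It was the highest control for Atg101 (9.80, the others up to 9.53) and Gabarap (11.80, the others up to 11.40). It was the lowest for Ulk2 (9.90, the others from 10.31), Atg9a (8.38, the others from 8.83), Atg4a (7.02, the others from 7.19) and Atg4c (8.22, the others from 8.41). This library also had the steepest slope on transcript length, -0.18; the part of that slope in these values was not tested.

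In the Uba3 cKO group replicate 1 was low for Rb1cc1 (10.14, the others from 10.28) and replicate 2 for Atg13 (10.48, the others from 10.66). Replicate 3 was high for Sqstm1 (12.51, the others up to 12.35) and replicate 4 for Atg2a (9.82, the others up to 9.70). Replicate 5 was high for Bnip3 (10.45, the others up to 10.10) and Fundc1 (9.86, the others up to 9.74). Replicate 5 also had the lowest oocyte mean of the 10 libraries, 9.20.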

How the results depend on the processing

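No alternative called any of the 39 genes between the groups at an adjusted p of 0.05. The median difference was lowest without control replicate 3 (-0.030) and highest without control replicate 4 (0.0045). Genes at an unadjusted p under 0.05 numbered 1 with library weights (Fundc1), 2 with the length slope as a covariate (Fundc1 and Map1lc3b), and 0 to 2 leaving out 1 library. Over all genes 1 gene was called with the length slope and 0 in the other settings. The Uba3 difference was -0.048 with weights, -0.0060 with the oocyte mean, -0.015 with the length slope and -0.056 to 0.066 leaving out 1 library. Among the genes given with full values, signs also turned for Atg4a (-0.016 with weights, -0.012 with the length slope), Atg9a (-0.011 with weights) and Lamp1 (0.0014 with quantile normalization). For the same genes, leaving out 1 library gave ranges across 0 for Atg16l1 (-0.11 to 0.0066), Atg4a (-0.030 to 0.036), Atg4d (-0.026 to 0.042), Atg9a (-0.041 to 0.12), Becn1 (-0.038 to 0.027), Bnip3 (-0.14 to 0.014), Nbr1 (-0.071 to 0.031), Tfeb (-0.081 to 0.13) and Wipi1 (-0.087 to 0.033). Over all 39 genes 25 turned at least once when 1 library was left out and 9 in another setting (Atg10, Atg4a, Atg4c, Atg9a, Lamp1, Map1lc3a, Pik3c3, Pik3r4 and Ulk2). Calls on the oocyte mean numbered 2, and 0 without a filter, with the replicate block or without the 2 farthest libraries (chosen after seeing the data). They numbered 1 without the trend, with either scaling or with the length slope, and 0 to 1 leaving out 1 library. The level per length was 8.43 at the median, 9.96 with median transcript lengths and, chosen after seeing the data, 8.45 with principal transcripts. The cause of these changes was not tested.

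Deviations of same-numbered libraries from their group means had r from -0.27 to 0.28 over 5 pairs. Pairs with different numbers had r from -0.35 to 0.45. The labels do not say whether the numbers pair the samples, and these correlations cannot decide it. With the replicate block, 0 genes were called and 0 of the 39 were at an unadjusted p under 0.05. The median difference of -0.0084 and the Uba3 difference of 0.0032 were those of the main fit, because the block cannot change them in this balanced design. Depth is unknown, so its limit cannot be given.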
